A study of Mus musculus with 13 samples.

Results

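Expression of 10 germline genes was followed by RNA-seq while female mouse embryonic stem cells (mESCs) differentiated with or without knockdown of Smarcc1, which encodes a central subunit of the chromatin remodelling complex BAF. The genes were Sohlh2, Taf7l, Dazl, Ddx4, Mael, Mov10l1, Stk31, Sycp3, Slc25a31 and Tex101, and they were 10 of the 25965 genes of the deposited table. They were chosen by name as germline genes whose promoters depend on DNA methylation for silencing, with the steep fall of Dazl over the days of differentiation already known. Their fall with day is therefore given as a description, with no test. The tests concern the knockdown, which the rule of choice did not use. The test of interaction with day is a partial exception, since it compares the change per day between groups. The members were still settled with earlier results of these data known, so these are not tests of a blind choice.

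The cells were female F1 mESCs from FVB/NJ dams and CAST/EiJ sires, with no engineered allele named in the labels. They were expanded in 2i medium before weaning into serum-containing DME HiHi medium. Retroviral short hairpins were introduced on day 2 and transduced cells were selected with puromycin from day 3. Nons libraries carried a nonsilencing hairpin, and Smarcc1.6 and Smarcc1.7 libraries carried 1 of 2 hairpins against Smarcc1, each sampled once on days 4, 5, 6 and 7. A single Day0 library, with no hairpin in its label, stood for undifferentiated mESCs. The model is a partial knockdown in a bulk culture, and the labels do not say whether the days or groups came from separate cultures, so the 4 days of a group served as its replicates and p-values measure only the spread between these libraries.

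Germline genes of this class carry CpG-rich promoters that are unmethylated in the germline and in the early embryo. In somatic lineages their promoters gain DNA methylation, laid down by DNMT3A and DNMT3B around implantation, and the genes then stay off. In mESCs some of them are also held down by PRC1.6, a Polycomb complex that reaches DNA through the MGA-MAX pair, which binds the E-box CACGTG, and through E2F6. Their products serve meiosis, germ granules and the piRNA pathway, in which small RNAs guide the silencing of transposons in germ cells.

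The promoters of the members are shown first, since CpG density and the E-box are what this class is known for. RefSeq windows of 300 bases (250 before to 50 after an annotated start, GRCm38.p6, the same build as mm10) were found for 10 of 10 members, and Stk31 had 2 of the 11 windows. They held 15 (Sycp3) to 38 (Ddx4) CpG dinucleotides with a median of 21, against 8 in all 27025 genes of the promoter table and 22 in the 9245 tested genes that have a window. The motif CACGTG, which reads the same on both strands, was found in 7 of 10 members (70.0%) and in 15 of 51 other germline genes listed for this work (29.4%). It was found in 8.09% of all genes of the promoter table and in 12% of the tested genes. No match was found in the windows of Dazl, Sohlh2 and Tex101, which says only that these letters are absent there. GCGGGA, a core of E2F-type motifs, searched on both strands, was found in 4 of 10 members and in 41.2% of the tested genes. Both motifs were chosen after the promoters had been looked at, and a match is a description and not a bound site.

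Stretches around the E-box of the 7 members that have one are printed 5′ to 3′ on the strand of the gene, with CACGTG in capitals, to show where it lies. The motif began 29 bases before the start in Ddx4, 49 in Taf7l, 64 and 43 in Sycp3, 93 in Slc25a31, 120 or 55 in Stk31 depending on the window, 223 in Mael and 246 in Mov10l1.
Ddx4, chr13:112652314-112652359, minus strand: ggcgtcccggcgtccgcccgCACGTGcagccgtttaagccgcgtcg
Taf7l, chrX:134476514-134476559, minus strand: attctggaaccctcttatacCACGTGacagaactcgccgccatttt
Sycp3, chr10:88459503-88459569, plus strand: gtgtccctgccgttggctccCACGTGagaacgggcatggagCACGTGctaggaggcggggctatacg
Slc25a31, chr3:40708758-40708803, plus strand: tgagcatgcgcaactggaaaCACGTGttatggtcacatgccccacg
Stk31, chr6:49395464-49395509, plus strand: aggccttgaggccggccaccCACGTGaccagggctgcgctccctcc
Mael, chr1:166238942-166238987, minus strand: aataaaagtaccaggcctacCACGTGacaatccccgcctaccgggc
Mov10l1, chr15:88982744-88982773, plus strand: ccttCACGTGctaaccgccaacctctcgtg

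The 250 bases before the start of Dazl, the member with the steepest fall, are printed with each CpG in capitals, the positions at which DNA methylation is laid down. The capital at the end is the C of a CpG whose G lies past the start. No methylation was measured in these libraries.
Dazl, chr17:50293621-50293870, minus strand: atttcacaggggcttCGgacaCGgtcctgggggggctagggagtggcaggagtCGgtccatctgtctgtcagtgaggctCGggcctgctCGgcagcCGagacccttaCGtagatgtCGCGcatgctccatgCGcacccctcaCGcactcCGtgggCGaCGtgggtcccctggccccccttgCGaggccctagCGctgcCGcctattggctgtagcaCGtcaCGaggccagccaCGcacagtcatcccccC

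**Figure D1:**
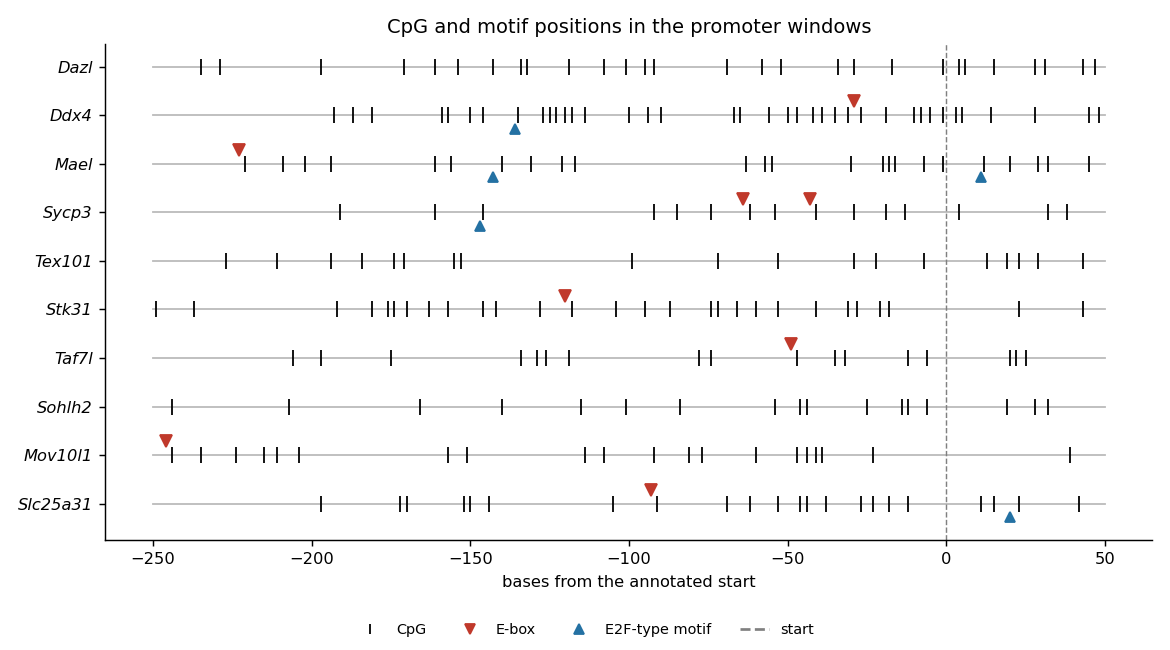
Promoter windows of the 10 members, drawn by bases from the annotated start, with CpG dinucleotides as ticks, E-boxes as downward triangles and E2F-type motifs as upward triangles. CpG counts ran from 15 to 38 per window, and 7 of 10 windows held an E-box. For Stk31 the window that matches an annotated transcript is drawn.

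The 13 libraries held between 13993440 and 63548092 mapped reads, with 17182 to 19845 genes detected by 1 read or more. Day0 and the 3 libraries of day 6 stood apart from the rest: 85.3% to 86.5% of their mapped reads lay in genes, against 91.6% to 92.6% in the other 9. The counts of called genes are therefore also given without day 6, and differences across days or from Day0 include this shift. Values are log2 CPM (reads scaled to a common number of mapped reads), in which 3 reads correspond to between -4.41 and -2.22 depending on the library. Smarcc1 itself was lower than in same-day Nons in 8 of 8 comparisons, by 1.68 to 0.38 on the log2 scale, with a fitted difference of -1.06 ± 0.14 (SE, limma adjusted p = 0.00232). Pou5f1, which marks pluripotent cells, was present throughout, at 1211 CPM in Day0 and 747 to 1531 CPM on days 4 to 7.

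All 10 members averaged a log2 CPM of 0 or more on days 4 to 7, the filter for testing, which 13406 genes passed. None was at 0 reads in any library. The fewest reads for every member came from Nons on day 7, with 10 for Tex101, 15 for Slc25a31, 18 for Dazl, 27 for Mov10l1 and 28 for Taf7l, so the day 7 control values of these genes carry the largest counting error. The other members had at least 98 reads there. In Nons alone 9 of 10 members averaged 0 or more, and the exception was Tex101.

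Knockdown libraries held more RNA from these genes than Nons. In the fit of knockdown against Nons with day as a factor, 8 of 10 members were higher at an adjusted p under 0.05 and 0 were lower (limma, Benjamini-Hochberg adjusted over 13406 genes), where 6.88% of all tested genes were higher and 11.6% differed in either direction. The 8 were Taf7l, Slc25a31, Dazl, Mael, Sycp3, Stk31, Ddx4 and Mov10l1. Tex101 and Sohlh2 did not pass. An unadjusted limma p under 0.05 was reached by 9 of 10 members, Tex101 among them. The share of all tested genes at that threshold was not computed, but it is at least the 11.6% called after adjustment. The median difference of the 10 members was 0.94 on the log2 scale, and that of all tested genes was -0.01. In bulk libraries such as these, more cells expressing a gene and more RNA per cell cannot be told apart. Without the libraries of day 6, 5 of 10 members were called higher (Dazl, Ddx4, Mael, Stk31 and Taf7l), where 1.62% of tested genes were. Without day 5, 6 were called, and Mov10l1 and Sycp3 were the ones lost.

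**Figure D2:**
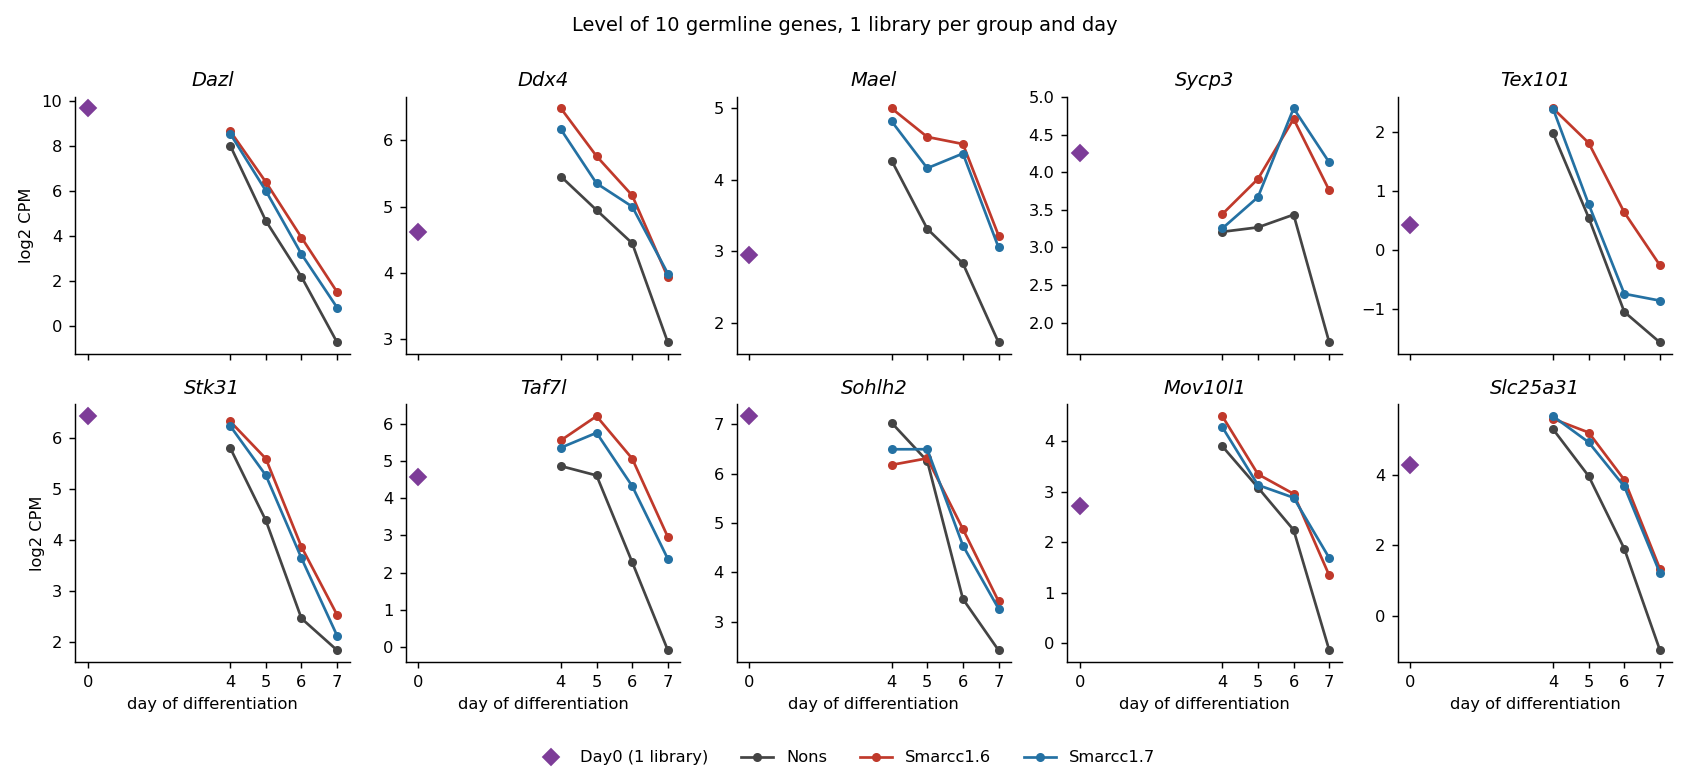
Level of each of the 10 members in log2 CPM against the day of differentiation, 1 point per library, with Day0 as a diamond and Nons, Smarcc1.6 and Smarcc1.7 as lines over days 4 to 7. In 9 of 10 panels both hairpin lines run above Nons on every day, and in the panel of Sohlh2 they run below it on day 4. The vertical axes differ between panels.

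The first pair act in transcription. Sohlh2 encodes a basic helix-loop-helix factor of early spermatogonia and oocytes (chr3:55182028-55209957, plus strand). Its log2 CPM was 7.17 in Day0 and 7.03, 6.26, 3.46 and 2.42 in Nons on days 4, 5, 6 and 7. Smarcc1.6 libraries had 6.18, 6.31, 4.88 and 3.42, and Smarcc1.7 libraries 6.50, 6.50, 4.54 and 3.26. Knockdown values thus started below Nons on day 4, by 0.85 and 0.54, and were above it on days 6 and 7. Over the 4 days the difference was 0.40 ± 0.23 (SE, limma adjusted p = 0.290). Its size turned on single libraries. It was 0.77 without day 4 (limma adjusted p = 0.0204) or without the day 4 Nons library alone (0.0128). It was 0.12 without day 6 (0.828) or the day 6 Nons library (0.811), and 0.23 without day 7 (0.615) or the day 7 Nons library (0.605). With voom, a limma fit that weights each value by the spread usual at its read count, it was 0.05 (0.910).

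Taf7l encodes the germ cell paralogue of TAF7, a subunit of the general transcription factor TFIID (chrX:134460118-134476490, minus strand). It stood at 4.57 in Day0 and at 4.86, 4.61, 2.28 and -0.08 in Nons. Smarcc1.6 libraries had 5.55, 6.20, 5.06 and 2.96, and Smarcc1.7 libraries 5.35, 5.75, 4.32 and 2.37. All 8 knockdown values were above same-day Nons, and the gap widened from 0.69 and 0.49 on day 4 to 3.04 and 2.45 on day 7. The fitted difference, 1.78 ± 0.29 (SE, 3.43-fold, limma adjusted p = 0.00501), was the largest of the 10. Taf7l is the X-linked member, and the median difference of the 507 X-linked tested genes was 0.05.

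Dazl encodes an RNA-binding protein that controls translation in germ cells and is needed for their development (chr17:50279394-50293599, minus strand). Its log2 CPM was 9.68 in Day0. Nons libraries had 8.03, 4.68, 2.19 and -0.72 from day 4 to day 7, a drop from 15607 to 18 reads that left 0.232% of the day 4 level. Smarcc1.6 libraries had 8.67, 6.41, 3.94 and 1.52, and Smarcc1.7 libraries 8.56, 6.02, 3.20 and 0.83. Each knockdown value lay above Nons of that day and below Nons of the day before, and 0.701% and 0.470% of the day 4 level remained on day 7. The difference from Nons was 1.35 ± 0.21 (SE, 2.54-fold, limma adjusted p = 0.00374).

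Ddx4 encodes the mouse Vasa homologue, a DEAD-box RNA helicase of germ granules (chr13:112598333-112652310, minus strand). Its values were 4.62 in Day0, 5.45, 4.95, 4.45 and 2.95 in Nons, 6.48, 5.76, 5.17 and 3.94 with Smarcc1.6, and 6.16, 5.35, 5.00 and 3.99 with Smarcc1.7. Unlike Dazl it was higher on day 4 than in the Day0 library in all 3 groups. The 8 differences from Nons stayed between 0.40 and 1.04, the narrowest range among the members, with a fitted difference of 0.78 ± 0.10 (SE, 1.72-fold, limma adjusted p = 0.00193).

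Mael encodes Maelstrom and Mov10l1 an RNA helicase, and both act in the piRNA pathway. Mael (chr1:166201385-166238744, minus strand) was 2.94 in Day0, 4.27, 3.31, 2.83 and 1.72 in Nons, 5.00, 4.60, 4.50 and 3.22 with Smarcc1.6, and 4.81, 4.16, 4.36 and 3.05 with Smarcc1.7. In Nons it fell on each day, whereas with Smarcc1.7 the day 6 value was above that of day 5. Its difference was 1.18 ± 0.14 (SE, 2.26-fold, limma adjusted p = 0.00166), the smallest adjusted p among the members. Mov10l1 (chr15:88982909-89055152, plus strand) was 2.71 in Day0, 3.90, 3.09, 2.25 and -0.14 in Nons, 4.50, 3.35, 2.96 and 1.34 with Smarcc1.6, and 4.28, 3.14, 2.89 and 1.69 with Smarcc1.7. The groups nearly met on day 5, by 0.26 and 0.05, and were furthest apart on day 7, by 1.48 and 1.83. Its difference of 0.74 ± 0.20 (SE, 1.67-fold, limma adjusted p = 0.0318) lay closest to the threshold. Without Nons of day 7, its 27-read library, the difference was 0.44. The call was lost on leaving out any of 7 single libraries (Nons of days 6 and 7, Smarcc1.6 of days 4, 5, 6 and 7, and Smarcc1.7 of day 6), with adjusted p-values of 0.0509 to 0.0883. It was also lost without day 4, 5 or 6, with 0.0534, 0.0502 and 0.131. The gene holds the small nuclear RNA gene Gm23737.

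Stk31 encodes a germ cell protein with a tudor domain and a kinase-like domain (chr6:49395604-49469501, plus strand). It was 6.44 in Day0, 5.81, 4.39, 2.46 and 1.84 in Nons, 6.33, 5.60, 3.87 and 2.53 with Smarcc1.6, and 6.25, 5.28, 3.65 and 2.12 with Smarcc1.7. The gap to Nons was widest on day 6 (1.41 and 1.18) and narrowed on day 7 (0.69 and 0.28). Its difference was 0.83 ± 0.14 (SE, 1.78-fold, limma adjusted p = 0.00583). The processed pseudogene Gm17060 lies on the opposite strand within it.

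Sycp3, which encodes a lateral element protein of the synaptonemal complex that joins paired chromosomes in meiosis (chr10:88459569-88473236, plus strand), did not follow the label of a gene silenced on differentiation. Its log2 CPM was 4.25 in Day0 and 3.21, 3.27, 3.44 and 1.74 in Nons, so that Nons fell only between days 6 and 7. Smarcc1.6 libraries had 3.44, 3.91, 4.71 and 3.76, and Smarcc1.7 libraries 3.25, 3.67, 4.85 and 4.13. Day 7 stood at 36.1% of day 4 in Nons, and at 124% and 184% with the hairpins. The groups were close on day 4, by 0.23 and 0.04, and furthest apart on day 7, by 2.02 and 2.39. The fitted difference was 1.05 ± 0.25 (SE, 2.07-fold, limma adjusted p = 0.0216). Without the day 7 Nons library it was 0.67 (limma adjusted p = 0.0418). It was not called without the day 6 Nons library (adjusted p = 0.0920), without day 6 (0.137) or without day 5 (0.0598). Sycp3 overlaps the protein-coding gene Chpt1 on the opposite strand. The strand setting of the counting was not found in the sources used here, so reads of the 2 genes cannot be told apart, and the same holds for Stk31 with Gm17060.

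The last pair have roles in sperm cells. Slc25a31 encodes an ADP/ATP carrier of germ cell mitochondria (chr3:40708855-40725593, plus strand). It was 4.27 in Day0, 5.29, 3.96, 1.90 and -0.98 in Nons, 5.58, 5.19, 3.85 and 1.33 with Smarcc1.6, and 5.66, 4.92, 3.66 and 1.20 with Smarcc1.7. The gap widened from 0.29 and 0.37 on day 4 to 2.31 and 2.19 on day 7, with a fitted difference of 1.39 ± 0.23 (SE, 2.61-fold, limma adjusted p = 0.00558). Without day 6 the difference was 1.23 and its adjusted p was 0.0549. Tex101 encodes a surface glycoprotein of germ cells (chr7:24668012-24672050, minus strand). It was 0.43 in Day0, 1.99, 0.55, -1.05 and -1.57 in Nons, 2.41, 1.82, 0.64 and -0.26 with Smarcc1.6, and 2.40, 0.78, -0.74 and -0.86 with Smarcc1.7. All 8 knockdown values were above Nons, but those with Smarcc1.7 by no more than 0.71, and the difference of 0.79 ± 0.29 (SE) had a limma adjusted p of 0.0951. Its counts were low, from 10 to 68 reads in Nons of days 5 to 7.

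Counted over all members, knockdown was above same-day Nons in 78 of 80 comparisons, and 9 of 10 members were higher in 8 of 8, against 7.89% of tested genes. The 2 exceptions were both hairpins for Sohlh2 on day 4. The median difference of the 10 members with Smarcc1.6 was 0.56, 1.23, 1.54 and 1.49 on days 4, 5, 6 and 7. For Smarcc1.7 it was 0.42, 0.62, 1.13 and 1.44. The median over all tested genes on the same days lay between -0.04 and 0.02. Tested genes that fell on each day in Nons were often above same-day Nons too. On days 5 to 7, 43.9% of their knockdown values lay between Nons of that day and of the day before. A further 25.6% were at or above Nons of the day before. Being above Nons was thus not particular to the members, and the share higher in 8 of 8 was not computed for falling genes. Both hairpins are compared with the same Nons libraries, so their values are not independent of each other.

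**Figure D3:**
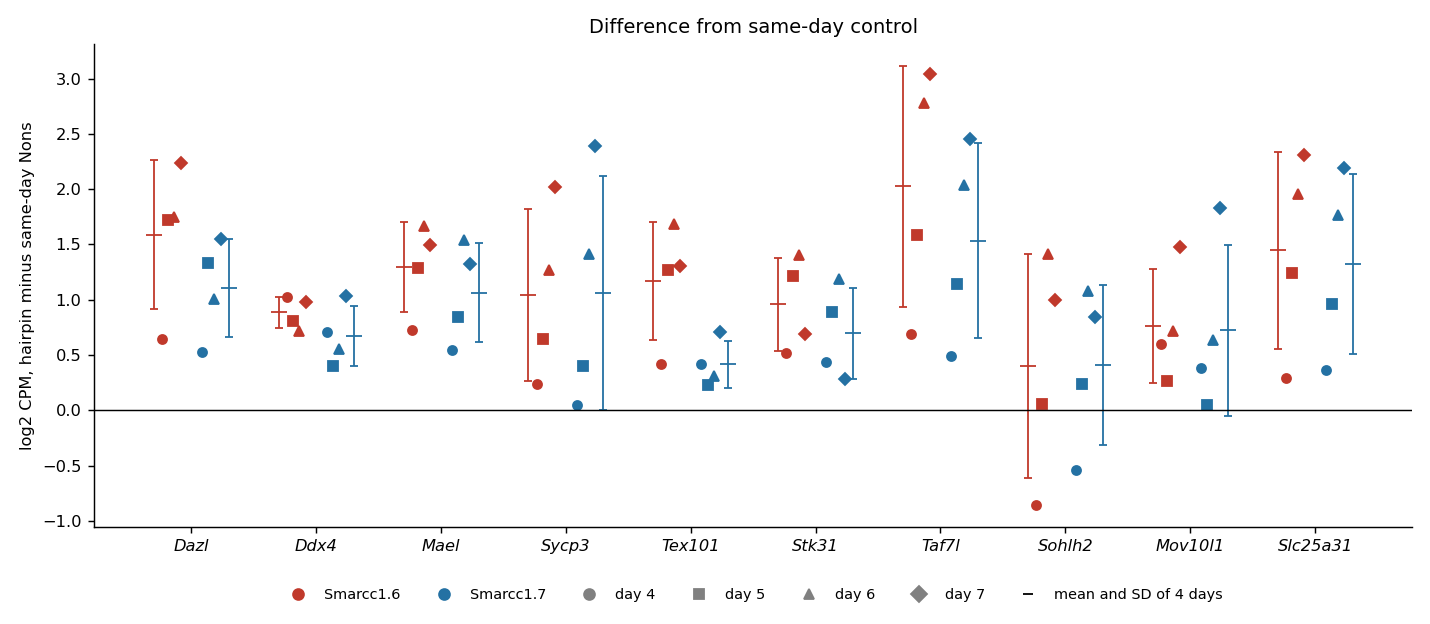
Difference in log2 CPM between each hairpin and same-day Nons for the 10 members, with 1 symbol per day, and the mean and SD of the 4 days beside them. Only the day 4 symbols of Sohlh2 fall below 0. For Dazl, Sycp3, Taf7l, Mov10l1 and Slc25a31 the day 7 symbols are the highest with both hairpins.

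The hairpins were next taken singly, in 1 fit of the 3 groups that also held day. With Smarcc1.6, 7 of 10 members were higher than Nons (Taf7l, Dazl, Slc25a31, Mael, Tex101, Stk31 and Ddx4), where 5.59% of tested genes were. Tex101 did not reach the filter in Nons alone and entered the test through the knockdown libraries. At a filter of a mean log2 CPM of 1, which leaves Tex101 out, 6 of 9 members were called with Smarcc1.6. With Smarcc1.7, 6 of 10 were higher (Taf7l, Slc25a31, Dazl, Mael, Stk31 and Ddx4), where 1.69% of tested genes were. For Taf7l the difference was 2.02 with Smarcc1.6 and 1.53 with Smarcc1.7, for Dazl 1.59 and 1.10, for Slc25a31 1.45 and 1.32, and for Ddx4 0.89 and 0.68. The count for Smarcc1.6 was 4 without day 5 and 4 without day 6. The count for Smarcc1.7 was more fragile. It was 0 without day 5, 0 without day 6 and 3 without day 7. On leaving out single libraries it was 2 without Nons of day 5, 2 without Nons of day 6, 3 without Smarcc1.6 of day 5 and 3 without Smarcc1.6 of day 6. Among its own libraries it was 1 without day 4, 2 without day 5, 0 without day 6 and 1 without day 7.

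A direct comparison of the hairpins called 0 members, as it called 0 of the tested genes (0%), and an unadjusted p under 0.05 was reached by 2 members, Dazl and Tex101, and by 3.95% of tested genes. The count of called members was also 0 without day 6. Smarcc1.6 was above Smarcc1.7 on 33 of 40 member-days, which come from the same few libraries and are not separate observations. The share over all tested genes was not computed, so this count is not read as a trait of the members. For Dazl the difference was 0.48 on the log2 scale with a 95% interval of 0.04 to 0.92 (limma adjusted p = 0.989), and for Tex101 it was 0.76 with an interval of 0.18 to 1.34 (limma adjusted p = 0.989). For Sycp3 the interval ran from -0.69 to 0.65 and for Sohlh2 from -0.63 to 0.62, so differences of this size between the hairpins could not be seen here.

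Whether the effect of knockdown changed with day was then asked, which compares falls that were partly known when the genes were chosen. With day as a straight line, the interaction called 0 members and 0% of tested genes, and 4 members (Slc25a31, Sohlh2, Sycp3 and Dazl) and 5.56% of tested genes had an unadjusted p under 0.05. A fit with day as a factor, added after the data were seen, called 4 members, where 3.75% of tested genes were called. The difference between knockdown and Nons grew per day by 0.75 for Taf7l (SE 0.14, limma adjusted p = 0.0163), by 0.70 for Sycp3 (SE 0.09, limma adjusted p = 0.00271), by 0.65 for Slc25a31 (SE 0.09, limma adjusted p = 0.00245) and by 0.59 for Sohlh2 (SE 0.12, limma adjusted p = 0.0223). The same 4 were called without day 6, with limma adjusted p-values of 0.00883 to 0.0193, where 2.03% of tested genes were called. This fit was not run without day 7 or its Nons library, so how far these slopes rest on that library was not tested. There Slc25a31 had 15 reads, Taf7l 28, Sycp3 99 and Sohlh2 159, and the Sycp3 value, 1.74, lay far from those of the other Nons days. For Ddx4 and Stk31 the change was 0.05 and 0.03 per day, and their adjusted p-values in this fit were 0.833 and 0.935.

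**Figure D4:**
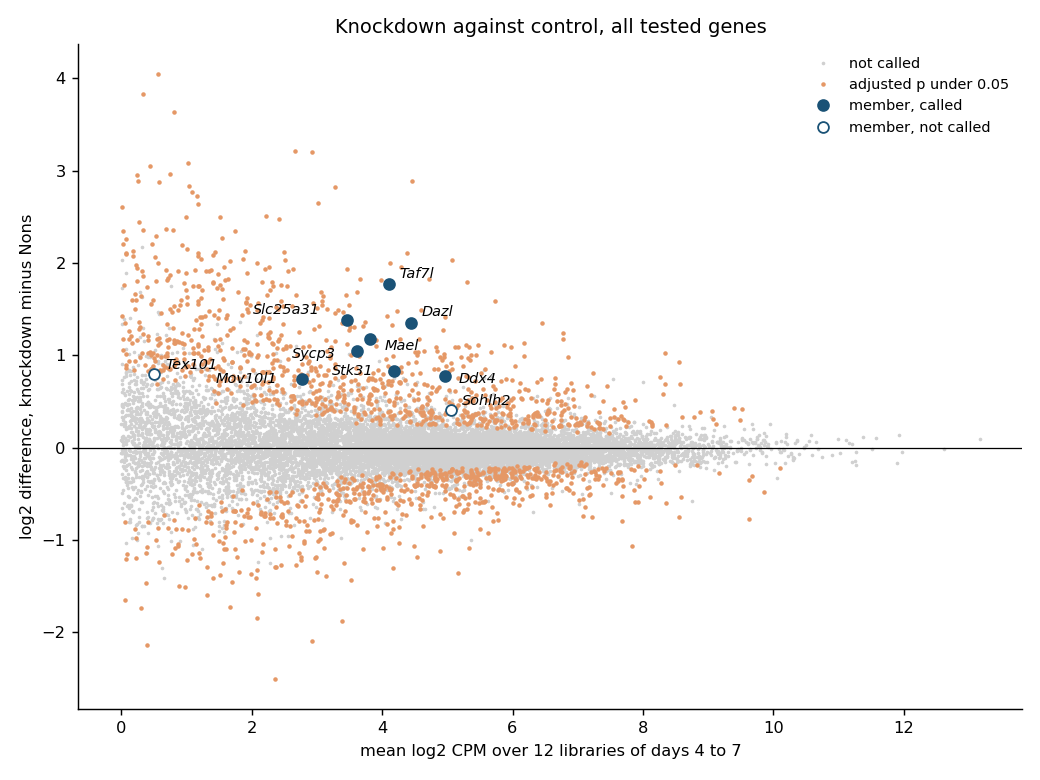
Fitted log2 difference between knockdown and Nons against mean log2 CPM over the 12 libraries of days 4 to 7, 1 point per tested gene (13406), with genes at an adjusted p under 0.05 coloured and the 10 members as large circles, open where not called. The members lie above 0, at 0.40 to 1.78, while the median of all tested genes is -0.01.

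The fall over the days, which was known when the genes were chosen, is given here for its size. In a fit over the 3 groups the change per day was -2.62 for Dazl, -1.65 for Slc25a31, -1.37 for Stk31, -1.27 for Sohlh2, -1.22 for Taf7l, -1.09 for Tex101, -1.03 for Mov10l1, -0.77 for Ddx4, -0.62 for Mael and 0.04 for Sycp3. Without day 6 the values lay within 0.10 of these, and that of Sycp3 was -0.06. The median of the members was -1.15 and that of all tested genes 0.04. A negative change was seen in 9 of 10 members and in 45.1% of tested genes, and 25.6% of tested genes fell at a limma adjusted p under 0.05. In Nons 9 of 10 members fell from each day to the next (15.1% of tested genes), with Smarcc1.6 7 did (14.8%), and with Smarcc1.7 6 did (13.5%). Between Nons and Day0 the members split on day 4. Dazl (-1.65), Sycp3 (-1.04), Stk31 (-0.62) and Sohlh2 (-0.13) were lower on day 4, whereas Tex101 (1.56), Mael (1.33), Mov10l1 (1.19), Slc25a31 (1.02), Ddx4 (0.83) and Taf7l (0.28) were higher. These differences rest on 1 library a side, and Day0 is of the kind that stands apart.

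On days 5, 6 and 7 a knockdown library could also be set against Nons of the day before. In 37 of 60 such pairs of member and library (61.7%) the knockdown level lay between Nons of that day and Nons of the day before, and in the other 23 (38.3%) it was at or above Nons of the day before. The second group held all 6 pairs of Sycp3, 5 of 6 for Mael and 5 of 6 for Taf7l, 3 of 6 for Ddx4 and for Tex101, and 1 of 6 for Stk31. Sycp3 did not fall on each day in Nons. For the 9 members that did, 37 of 54 pairs (68.5%) lay between and 17 (31.5%) were at or above. Of the pairs of all tested genes that fell on each day in Nons, 43.9% lay between and 25.6% were at or above.

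Other germline genes were read from lists whose make-up, like that of the members, was settled with earlier results of these data known. Of 59 listed genes 42 were tested, 29 were higher with knockdown and 0 were lower, where 6.88% of all tested genes were higher. Their median difference was 0.85 and 40 of 42 were above 0. In Nons alone 39 of the 42 averaged a log2 CPM of 0 or more, and of these 27 were higher (6.16% of the 13111 tested genes that did so). The other 3, Piwil1, Stra8 and Tex12, passed the filter only through the knockdown libraries. With voom 13 of the 29 calls were lost, and 10 of the 29 were kept on leaving out any single library. Singly, Smarcc1.6 called 26 of them (5.59% of tested genes) and Smarcc1.7 called 7 (1.69%). Without day 6 the count was 6, with a median of 0.72. It was 10 without day 5, 10 without the day 6 Nons library and 19 without the day 5 Nons library.

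Among genes of the piRNA pathway and germ granules, 11 of 14 tested rose (median of the 14, 1.01). The Tudor-domain gene Tdrd12 rose by 1.96, the PIWI genes Piwil1 and Piwil2, whose proteins bind piRNAs, by 1.90 and 1.82, and the paralogues Tex19.2 and Tex19.1 by 1.6 and 1.25. Asz1 rose by 1.24, Fkbp6 by 1.10, D1Pas1 by 0.92, Rnf17 by 0.75, Tdrkh by 0.49 and Ddx25 by 0.41, with limma adjusted p-values of 0.00349 to 0.0293 across the 11. Pld6 (0.58), Tdrd1 (0.11) and Tdrd5 (-0.44) did not pass. The calls of Piwil2 and Rnf17 were kept without any single library. With voom the calls of Tdrd12 (1.07, adjusted p = 0.0839), Piwil1 (1.45, 0.0709), Tex19.2 (0.92, 0.105) and D1Pas1 (0.67, 0.0585) were lost. Without Nons of day 7 the difference of Tdrd12 was 1.23 (limma adjusted p = 0.0403), that of Piwil1 1.20 (0.0441) and that of Asz1 0.78 (0.0597). Piwil1 averaged a log2 CPM of -0.27 in Nons and had 0 reads there on day 7, written by the authors as 0.9 reads. It entered the test through the knockdown libraries, and without it 10 of 13 rose.

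Among genes of meiotic chromosomes and meiotic entry, 12 of 20 tested rose (median of the 20, 0.64). Stra8, the retinoic acid responsive gene of meiotic entry, differed by 2.96 from as few as 1 read. It averaged a log2 CPM of -1.22 in Nons and entered the test through the knockdown libraries, as did Tex12, which was not called. Over the 18 genes other than these, 11 rose. The chromosome axis and cohesin genes Hormad1, Smc1b and Stag3 rose by 2.11, 1.94 and 1.33, and the bromodomain gene Brdt by 1.41. Tex11 rose by 1.17, Tex14 by 1.07, Tex15 by 0.65 and Dmc1, the meiotic recombinase, by 0.50. The synaptonemal complex genes Sycp1, Syce1 and Sycp2 rose by 0.98, 0.77 and 0.53. The limma adjusted p-values of the 12 were 0.00145 to 0.0481. With voom the difference of Hormad1 was 1.03 (adjusted p = 0.0513) and that of Smc1b 0.98 (0.0560), and both calls were lost, as were those of Tex14, Tex15 and Sycp2. The calls of Hormad1, Smc1b, Stag3, Brdt, Tex11 and Sycp1 were kept without any single library. Of the other germ cell genes 6 of 8 tested rose: Tuba3b by 2.01, Tuba3a by 1.82, Zcwpw1 by 1.28, Hsf2bp by 1.09, Rpl10l by 0.98 and Cpeb1 by 0.42 (limma adjusted p 0.00349 to 0.0491). With voom Tuba3b was at 0.95 (adjusted p = 0.123), Tuba3a at 0.92 (0.0652), Hsf2bp at 0.74 (0.0588) and Cpeb1 at 0.36 (0.0807), and none was called. Cpeb1 was not called in 22 of 26 alternatives, filters among them, whereas Zcwpw1 and Hsf2bp kept the call without any single library. Tuba3a and Tuba3b, Tex19.1 and Tex19.2, and D1Pas1 and Rpl10l with their parent genes are close copies, among which the counting may have split reads, so their values are uncertain.

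**Figure D5:**
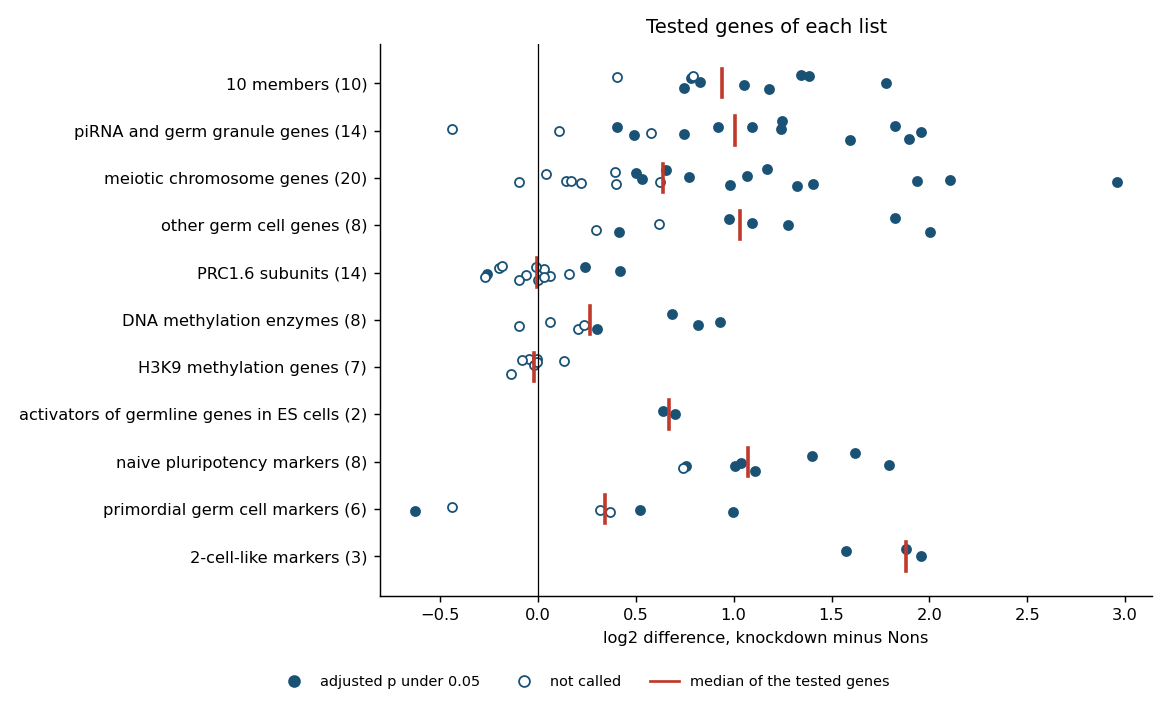
Fitted log2 difference between knockdown and Nons for the tested genes of each list, 1 point per gene, filled where the adjusted p is under 0.05, with the median of the list as a bar and the number of tested genes in brackets. The 3 germline lists have medians of 1.01, 0.64 and 1.03, and those of PRC1.6 subunits and H3K9 methylation genes are -0.00 and -0.02.

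Genes of the silencing machinery itself were read next. Of 31 listed genes, all tested, 8 were higher and 1 lower with knockdown (11.6% of tested genes differed in either direction), with a median of 0.03. Among 14 PRC1.6 subunits, L3mbtl2 rose by 0.42 and Rybp by 0.24 and Tfdp1 changed by -0.26, while Pcgf6 (0.06), Mga (0.03), Max (0.00) and E2f6 (-0.20) did not pass. Of 8 genes of DNA methylation and its removal, 4 rose. These were Dnmt3a by 0.69 and its cofactor Dnmt3l by 0.93, which were higher in 6 of 8 same-day comparisons, and the oxidases Tet1 by 0.30 and Tet2 by 0.82. Without Nons of day 6 the difference of Dnmt3a was 0.44 (limma adjusted p = 0.151), and without Nons of day 7 that of Dnmt3l was 0.57 (0.0895). Dnmt1 (-0.10), Dnmt3b (0.20) and Uhrf1 (0.06) did not pass. Of 7 genes of H3K9 methylation, among them Setdb1 (-0.05) and Ehmt2 (-0.00), 0 were called in limma or with voom, and 1 had an unadjusted p under 0.05. Dppa2 and Dppa4, which encode a pair of activators of germline and early embryonic genes in mESCs, rose by 0.64 and 0.70. Of these 9 calls 1 was left without day 6 and 2 without day 5. The count was 2 without the Nons library of day 5 or of day 6, 4 without the Smarcc1.6 library of day 5 or of day 6, and 5 without the Smarcc1.7 library of day 5.

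Markers of other cell states moved with the knockdown too. Of 8 naive pluripotency markers 7 rose (median of the 8, 1.07), where 6.88% of all tested genes were higher. Nr0b1 rose by 1.79, Prdm14, a regulator of naive mESCs and of germ cell fate, by 1.62, Klf4 by 1.40 and Zfp42 by 1.11. Klf2 rose by 1.04, Esrrb by 1.00 and Tfcp2l1 by 0.76, while Nanog was at 0.74 with a limma adjusted p of 0.0859. Summed over the 8 markers, the level was 3986 CPM in Day0 and 199.7 to 491 CPM in Nons. It was 317 to 1491 CPM with Smarcc1.6 and 239 to 1126 CPM with Smarcc1.7. Without day 6, 5 of 8 were called, where 1.62% of tested genes were called higher. Nr0b1 had 0 reads in Nons on day 7, and with voom it was at 0.94 (adjusted p = 0.111) and not called. Its call was lost in 19 of 26 alternatives, and that of Tfcp2l1 in 15 of 26. Pou5f1 differed by 0.07 (limma adjusted p = 0.604). The part of these markers in the result for the germline genes was not tested.

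Of 6 tested markers of primordial germ cells (7 listed), Dppa3 rose by 0.99 and Ifitm3 by 0.52, Dnd1 changed by -0.63, and Prdm1 (-0.44), Tfap2c (0.37) and Kit (0.32) did not pass. Their summed level ranged from 154 to 265 CPM in Nons, from 207 to 309 CPM with Smarcc1.6 and from 209.7 to 287 CPM with Smarcc1.7. Of 6 markers of 2-cell-like cells, a rare state of mESC cultures, 3 were tested and all 3 rose, Zscan4d by 1.96, Tcstv1 by 1.88 and Zscan4c by 1.57. Their summed level ran from 1.85 to 18.0 CPM in Nons, 5.49 to 66.4 CPM with Smarcc1.6 and 3.70 to 46.4 CPM with Smarcc1.7, and the Zscan4 genes are close copies. Without day 6, 0 of the primordial germ cell markers were called in limma, with 2 higher at an unadjusted p under 0.05, and 1 of 3 2-cell-like markers was called. Markers of spermatids were at no more than 0.218 CPM in sum in any of the 12 libraries, with Prm1 and Tnp1 at 0 reads throughout. Of 6 oocyte markers only Zp3 was tested (1.75, limma adjusted p = 0.0606), and their summed level ran from 0.034 to 9.76 CPM. Zp3 averaged a log2 CPM of -0.40 in Nons, had 0 reads there on day 7, and entered the test through the knockdown libraries. The part of the first 2 sets in the result was not tested.

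The 5 tested genes whose levels over the 13 libraries were most like those of Dazl were Kcnk5, a potassium channel gene (Pearson r 0.992), Kat2b, which encodes a histone acetyltransferase (0.989), Nlrp4f (0.989), 1700061G19Rik (0.988) and Tdh, which encodes the threonine dehydrogenase of mESCs (0.988). Over the 9 libraries other than Day0 and day 6, a choice made after the data were seen, these were 0.992, 0.994, 0.990, 0.992 and 0.984. Among the members Stk31 was nearest (0.986, rank 7 of all tested genes) and Sycp3 furthest (0.180, rank 5055). The libraries share days and groups, and these values describe likeness over a time course and carry no test.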

How the data were processed

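The authors prepared TruSeq RNA libraries, sequenced them paired-end, trimmed the reads with trim_galore, aligned them with tophat or hisat2 to mm10 with FVB/NJ and CAST/EiJ variants masked, and quantified genes in Seqmonk. The submitters' processing notes name bcl2fastq and TopHat2 2.0.12, and which aligner served which library is not given in the sources used here. The deposited values are log2 CPM per gene, with 0 reads written as 0.9 reads. Whole reads and depth were recovered from the steps of the values, of which 100% of the low ones were whole to within 0.01.

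Genes averaging a log2 CPM of 0 or more on days 4 to 7 (12 libraries) were fitted with limma 3.58.1 in R 4.3.3 (lmFit, eBayes with trend) and p-values were adjusted by Benjamini-Hochberg over 13406 genes at 0.05, since the unit is log2 and not counts. Day was a factor, Day0 entered no test, and floors cover counting error only. Fits were tested on simulated data. Promoters came from RefSeq and gene models from GENCODE M21. The text names all members, the list genes called, the 5 genes most like Dazl, and Smarcc1, and other genes with values as examples of lists. Members and lists were chosen with earlier results of these data known. Alternatives covered the filter, scaling, a pseudocount, voom, thinning, the day term, single hairpins and leaving out libraries. The interaction with day as a factor, the marker counts without day 6, the list counts over genes that pass the filter in Nons, the pairs of members falling in Nons, and the likeness to Dazl over 9 libraries were added after the data were seen. Python 3.11.15 was used.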

Additional observations from a re-analysis of the deposited data

Results flagged for a closer look

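The level of Sycp3 in Nons on day 7, a log2 CPM of 1.74, lay far from the other 3 days of its group (3.21, 3.27 and 3.44). The measure was the gap to the nearest value divided by the range of the group. It was the single such value among 50 groups of 4 that were checked, where about 2.5 would come from chance. Both hairpin values of Sycp3 on that day, 3.76 and 4.13, lay within the range of their groups by this measure.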

How the results depend on the processing

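The direction of the knockdown difference held for the 10 members in 259 of 259 alternative fits, which reuse the same libraries. It held in 751 of 751 for the 29 other germline genes called. These were picked for a positive call in the same libraries, so their direction was nearly fixed in advance. The number of members called was 8, and 5 to 9 on leaving out 1 library or day. It was 0 without day as a block, 2 with Smarcc1.6 only and 0 with Smarcc1.7 only, the last 2 fits having 8 libraries. For Smarcc1.6 it was 7, with 0 without the block and 4 to 9 on leaving out. For Smarcc1.7 it was 6, with 2 without an eBayes trend, 2 with voom, 0 without the block and 0 to 8 on leaving out. The comparison of the hairpins called 0 members in each alternative, voom included. The interaction called 0 members with day as a line, and 4 with day as a factor, also 4 with that and without day 6. With day as a factor it was not run without day 7. Other germline genes called were 29, with 17 by voom, 0 without the block, 0 with either hairpin only and 6 to 32 on leaving out. Of them 10 kept the call without any 1 library. Silencing genes called were 9, with 4 without a trend, 0 without the block, 1 with Smarcc1.6 only, 0 with Smarcc1.7 only and 1 to 9 on leaving out. The cause of these moves was not tested, and the fits with a single hairpin differ from the main fit in both the number of libraries and the hairpin. The change of Sycp3 per day turned from 0.04 to -0.203 without day 4, -0.0555 without day 6 and -0.0417 on centring, and was 0.51 without day 7. The median change of the members per day stayed between -1.29 and -0.95. Centring raised the share of calls that were higher from 59.1% to 65.5%, as did dropping the filter (65.2%, with the median of all genes at 0.11). Over all genes 1561 were called, with 4 without the block, 287 without day 6, 386 without day 5, 611 and 624 without Nons of day 5 and day 6, 952 without Smarcc1.6 of day 6, 1002 without Smarcc1.6 of day 5, 57 with Smarcc1.6 only and 0 with Smarcc1.7 only (limma). The interaction was not run without day. Counts of 10 to 28 reads limit 5 members in Nons on day 7.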
